A study of Mus musculus with 3 samples.

Results

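The genes described here are the 4 type 2 cytokines Il4, Il5, Il13 and Il9, chosen by their symbols from the 32285 genes of 3 single-cell libraries of mouse lung, and all 4 were found. The libraries carry the treatment labels Control, Model and PD00, with 1 library for each treatment, and all came from mice aged 3 months. Ovalbumin, the allergen of a common mouse asthma model, and PD00, described as a peptidomimetic, appear in the title of the series. The source labels call the lung of all 3 libraries healthy, and they state neither strain, dose, number of animals in a library, nor whether the PD00 library received ovalbumin as well. After filtering, 9368 Control, 11285 Model and 9373 PD00 cells were kept, with medians of 5231.5, 4048 and 4574 unique molecular identifiers (UMIs, each counting 1 captured RNA molecule) per cell. With 1 library per treatment no difference has a replicate check and no test was run. Intervals are 95% intervals of counting error, and every ratio compares libraries, not treatments. Between 27 and 40 cell barcodes were shared by a pair of libraries, and no shared barcode held a UMI of these cytokines in both.

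Type 2 cytokines are the secreted signals of allergic inflammation. IL-4 directs helper T cells to the T helper 2 fate and B cells to IgE, IL-5 drives the maturation and survival of eosinophils, IL-13 acts on airway epithelium and smooth muscle to raise mucus and airway reactivity, and IL-9 supports mast cells. In the lung their known sources are T helper 2 cells and group 2 innate lymphoid cells (ILC2), with basophils, mast cells and eosinophils as further sources of IL-4 and IL-13. Epithelial alarmins such as IL-33 act on these cells through receptors such as ST2, the product of Il1rl1, and the transcription factor Gata3 is required in both lymphocyte types.

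Il4, Il13 and Il5 lie within 122125 bp on mouse chromosome 11 in GRCm38, an arrangement known as the Th2 cytokine locus. Il4 (ENSMUSG00000000869) spans chr11:53602982-53618669 on the minus strand and Il13 (ENSMUSG00000020383) spans chr11:53631324-53634702 on the same strand, with 12654 bp between them. Rad50, which encodes a DNA repair protein and holds the locus control region in its introns, lies between Il13 and Il5. Il5 (ENSMUSG00000036117) spans chr11:53720794-53725106 on the plus strand. Il9 (ENSMUSG00000021538) lies apart on chromosome 13, at chr13:56479277-56482246 on the minus strand. Il5 overlaps 1 gene on the opposite strand, Gm12214, which held 0 Control, 0 Model and 1 PD00 UMIs, and whether the counting used strand is not given in the sources used here. No gene overlaps Il4, Il13 or Il9.

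The promoters are shown because 3 of the 4 genes were high in the same libraries and partly in the same cells, while the fourth was almost undetected. Each stretch runs from 250 to 11 bases before the transcription start (RefSeq sequences, GRCm38.p6, 5′ to 3′ on the gene's strand), at chr11:53618676-53618915 (minus) for Il4, chr11:53634713-53634952 (minus) for Il13, chr11:53720544-53720783 (plus) for Il5 and chr13:56482268-56482507 (minus) for Il9. Capitals mark matches, on either strand, to motifs known as the NFAT core (GGAAA), the GATA site (AGATAA or TGATAA), the AP-1 site (TGANTCA), the STAT6 site (TTC and GAA separated by 4 bases) and the Maf half-site (TGCTGA).
Il4 promoter: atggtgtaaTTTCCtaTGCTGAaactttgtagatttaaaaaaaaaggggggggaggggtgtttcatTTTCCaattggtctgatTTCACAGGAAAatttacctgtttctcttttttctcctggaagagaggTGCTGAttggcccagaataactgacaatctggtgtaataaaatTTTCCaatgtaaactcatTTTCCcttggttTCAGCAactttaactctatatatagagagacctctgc
Il13 promoter: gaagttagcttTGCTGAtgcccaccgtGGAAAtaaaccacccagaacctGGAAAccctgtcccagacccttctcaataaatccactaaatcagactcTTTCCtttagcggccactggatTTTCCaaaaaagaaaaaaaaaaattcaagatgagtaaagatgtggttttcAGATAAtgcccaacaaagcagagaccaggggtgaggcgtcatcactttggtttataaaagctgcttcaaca
Il5 promoter: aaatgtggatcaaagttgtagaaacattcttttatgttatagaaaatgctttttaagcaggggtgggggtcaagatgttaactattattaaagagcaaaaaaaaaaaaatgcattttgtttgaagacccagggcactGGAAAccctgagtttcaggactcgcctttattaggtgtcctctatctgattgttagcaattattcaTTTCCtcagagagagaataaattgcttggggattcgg
Il9 promoter: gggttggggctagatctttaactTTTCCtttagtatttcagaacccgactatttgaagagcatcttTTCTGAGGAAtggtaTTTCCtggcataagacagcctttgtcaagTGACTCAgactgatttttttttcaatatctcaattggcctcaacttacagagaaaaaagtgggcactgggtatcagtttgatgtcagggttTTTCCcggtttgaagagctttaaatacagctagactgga
The Il4 stretch held 5 matches to the NFAT core, 1 to the STAT6 site, which overlaps an NFAT match, and 3 to the Maf half-site, a motif bound by the T helper 2 factor c-Maf. The Il13 stretch held 4 NFAT matches, 1 GATA match and 1 Maf match. The Il5 stretch held 2 NFAT matches and none of the others. The Il9 stretch held 3 NFAT matches, 1 AP-1 match and 1 STAT6 match. Over the same stretch of 27025 mouse promoters, an NFAT core occurred in 54.1%, a Maf half-site in 15.2%, TGATAA in 7.99%, the AP-1 site in 6.69%, the STAT6 site in 5.63% and AGATAA in 2706 promoters (10%). These are matches of letters, and the libraries hold no binding data.

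Over all kept cells, Il4, Il5 and Il13 were each higher in Model and PD00 than in Control. Il4 had 52 UMIs in 20 Control cells, 363 UMIs in 255 Model cells and 340 UMIs in 237 PD00 cells, or 0.673, 4.56 and 4.42 counts per 1000000 UMIs (CPM). Il5 had 57 UMIs in 34 Control cells, 365 in 189 Model cells and 296 in 166 PD00 cells, or 0.738, 4.58 and 3.85 CPM. Il13 had 39 UMIs in 21 Control cells, 739 in 300 Model cells and 520 in 241 PD00 cells, or 0.505, 9.27 and 6.76 CPM. The count intervals of Control lay below those of the other libraries for all 3 genes. Il9 had 1 UMI in Control, 1 in Model and 0 in PD00, at or under the limit of 3 counts that an undetected gene allows, so it is given no ratio. Its Control UMI lay in an ILC2 without the other 3 cytokines. The Model UMI lay in a T cell with Il1rl1 that also held 2 Il4 and 5 Il13 UMIs.

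**Figure D1:**
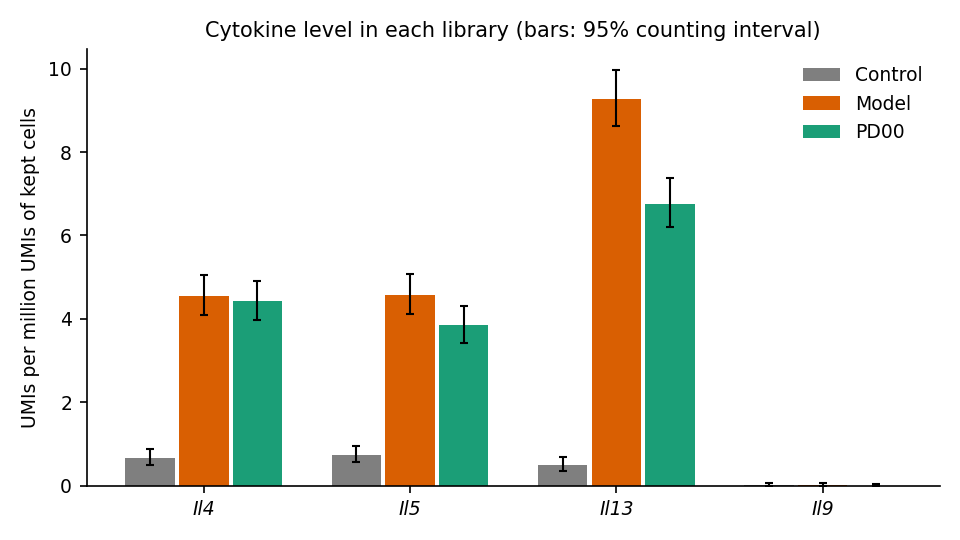
Level of the 4 cytokines over all kept cells of each library, in CPM, with exact Poisson 95% intervals as bars. Il13 stands at 0.505 in Control, 9.27 in Model and 6.76 in PD00, and Il9 is next to 0 in all 3.

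Against Control, the Model library had a 6.77-fold higher Il4 level (interval 5.05 to 9.23), a 6.21-fold higher Il5 level (4.68 to 8.36) and an 18.4-fold higher Il13 level (13.3 to 26.0). All 3 measured cytokines were at least 1.5-fold higher and none lower, beside 12.3% of the 15438 genes with at least 50 UMIs over both libraries that were higher and 18.1% that were lower. On the log2 scale the differences were 2.76, 2.63 and 4.20, beside a median of -0.13 over all tested genes. Against Model, PD00 stood at 0.970 times the Il4 level (0.835 to 1.13), 0.840 times the Il5 level (0.718 to 0.982) and 0.729 times the Il13 level (0.650 to 0.817). None of the 3 was 1.5-fold lower in PD00 than in Model, where 7.29% of 15253 genes were, and none was 1.5-fold higher, where 3.5% were. The interval for Il4 includes 1, and those for Il5 and Il13 lie below it. PD00 against Control gave 6.57-fold (4.89 to 8.97), 5.22-fold (3.92 to 7.05) and 13.4-fold (9.66 to 19.1), with 3 of 3 at least 1.5-fold higher and none lower, beside 10.5% and 19.7% of 15285 genes. These comparisons share libraries and are not independent.

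Few cells held these transcripts. Cells with a UMI of any of the 4 were 71 in Control (0.758% of cells), 590 in Model (5.23%) and 521 in PD00 (5.56%). Most positive cells of Il4 and Il5 held a single UMI, with 74.9% of Il4-positive and 67.7% of Il5-positive Model cells at 1 UMI, against 55.3% for Il13. The most UMIs in 1 cell were 10 for Il4 (Control), 29 for Il5 (PD00) and 21 for Il13 (Model). In Control, 4 cells with at least 5 UMIs held 67.3% of all Il4 UMIs. In Model, 34 cells with at least 5 UMIs held 41.8% of all Il13 UMIs.

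The source of the cytokines differed between Control and the other libraries. Cells were sorted into gates by marker genes, so that a cell type's name stands only for cells resembling it in those markers. In Control, 4 T cells held 22 of the 52 Il4 UMIs (42.3%). Basophils held 19 Il4 UMIs (36.5%) and 22 of the 39 Il13 UMIs (56.4%), and ILC2 held 33 of the 57 Il5 UMIs (57.9%, interval 44.1 to 70.9). In Model, T cells held 63.6% of Il4 UMIs (58.5 to 68.6), 83.3% of Il5 UMIs (79.1 to 87.0) and 83.5% of Il13 UMIs (80.6 to 86.1). In PD00 the T cell shares were 70.0%, 82.4% and 84.2%. ILC2 held 5.48% of Il5 UMIs in Model and 9.12% in PD00.

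**Figure D2:**
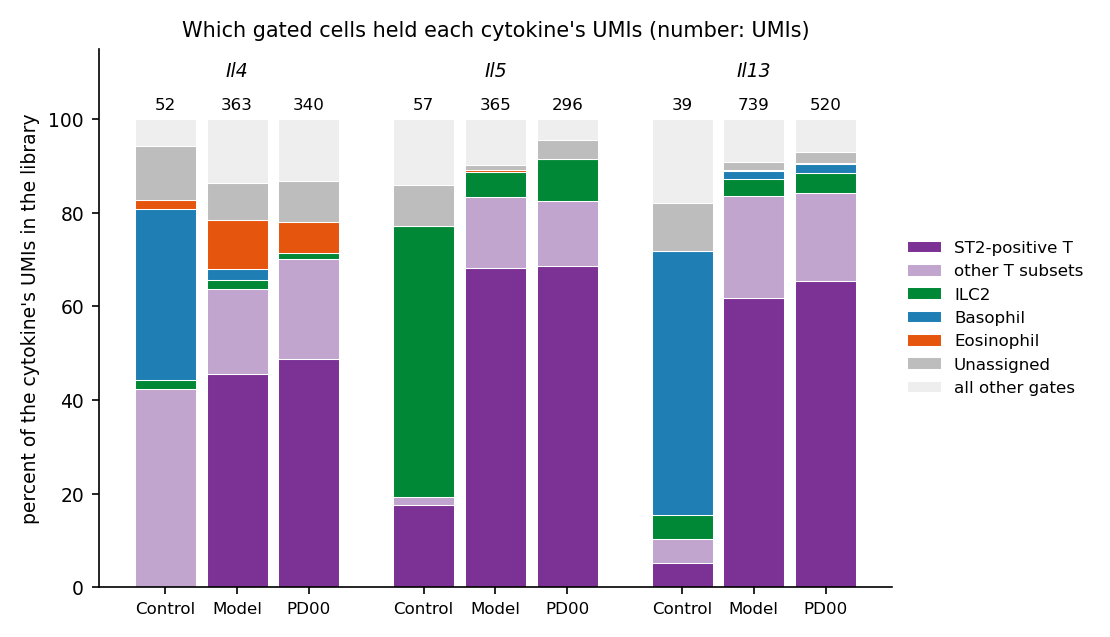
Percent of each cytokine's UMIs found in each gate, by library, with the number of UMIs above each bar. Basophils (blue) and ILC2 (green) make up much of the Control bars, and T cells with Il1rl1 (dark purple) make up 45.5% to 68.6% of the Model and PD00 bars.

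In Model and PD00 the T cells that held most of these T cell UMIs were those with at least 1 UMI of Il1rl1, called ST2-positive T cells here, after leaving out CD8, Foxp3-positive and gamma-delta T cells. They numbered 41 in Control (0.438% of cells), 624 in Model (5.53%) and 738 in PD00 (7.87%). In Model, Cd4, which played no part in the gate, was found in 62.0% of them. Cd3e, one of the genes that chose T cells, was found in 78.0%, and Gata3, one of the ILC2 markers, in 86.4%. In Control the 41 cells also carried ILC2 genes. Kit had UMIs in 39.0% of them and Csf2 in 29.3%, beside 48.0% and 41.4% of Control ILC2, while Cd3e was found in 46.3%. In Model, Kit was found in 2.56% and Csf2 in 3.21% of ST2-positive T cells. The Control members of this gate are given as values only, with no ratio against them.

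Il13 was found in 2 of 41 ST2-positive T cells in Control, 159 of 624 in Model (25.5%, 22.1 to 29.1) and 147 of 738 in PD00 (19.9%, 17.1 to 23.0). Il5 was found in 5 of 41, 108 of 624 (17.3%) and 103 of 738 (14.0%). Il4 was found in 0 of 41 Control cells, which allows a share of up to 7.32%, in 101 of 624 Model cells (16.2%) and in 106 of 738 PD00 cells (14.4%). Each of the 3 was thus found in between 14.0% and 25.5% of these cells in Model and PD00. Relative to all UMIs of the gate, Il13 stood at 144 CPM in Model and 95.6 CPM in PD00, a ratio of 0.666 (0.577 to 0.768). Il5 stood at 78.2 and 57.1 CPM (ratio 0.730, 0.603 to 0.882), and Il4 at 51.8 and 46.7 CPM (ratio 0.900, 0.721 to 1.12). The intervals for Il13 and Il5 lie below 1 and that for Il4 includes it, but they take UMIs as independent, and 1 PD00 cell held 29 of the 203 Il5 UMIs. By the share of cells, the PD00 to Model ratio was 0.782 for Il13 (0.620 to 0.984), 0.806 for Il5 (0.610 to 1.07) and 0.887 for Il4 (0.669 to 1.18).

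The difference in the share of cells with Il13 was checked at equal depth. With every cell thinned to 1000 UMIs, Il13 was found in 10.8% of ST2-positive T cells in Model (67 of 620) and 6.92% in PD00 (51 of 737). Thinned to 2000 UMIs, the shares were 14.1% (82 of 580) and 12.8% (90 of 705), and the intervals overlapped at both depths. In PD00 the gate held a larger share of all cells than in Model, 7.87% against 5.53%, beside lower Il13 and Il5 levels within it. Over all T cells, the PD00 to Model ratio of the Il13 level was 0.911 (0.804 to 1.03), that of Il5 1.03 (0.867 to 1.22) and that of Il4 1.32 (1.10 to 1.59).

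**Figure D3:**
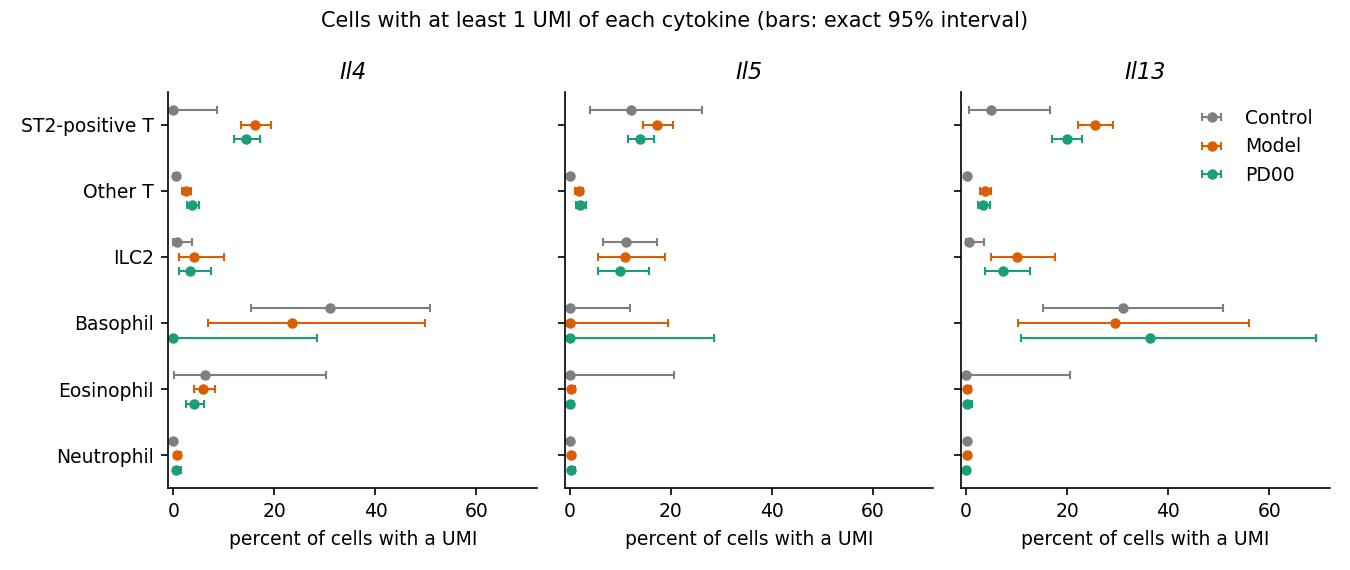
Percent of cells of 6 gates with at least 1 UMI of each cytokine, by library, with exact Clopper-Pearson 95% intervals. ST2-positive T cells of Model and PD00 lie above other T cells for all 3 genes. Basophils are high for Il13 and, in Control and Model, for Il4, but have no Il5. Eosinophils of Model and PD00 stand apart from neutrophils for Il4 only.

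In Model and PD00 the other T subsets had lower shares of cells with each cytokine, while in Control all T cell Il4 lay in T cells without Il1rl1. Among the remaining T cells without Il1rl1, Foxp3, CD8 or gamma-delta genes, Il13 was found in 1 of 941 in Control, 48 of 1293 in Model (3.71%) and 35 of 1038 in PD00 (3.37%). Il5 was found in 0, 23 and 22 of these cells. Il4 was found in 4 Control cells, 33 Model cells (2.55%) and 38 PD00 cells (3.66%), and stood at 5.40, 7.76 and 14.7 CPM. The 4 Control cells held all 22 Il4 UMIs of Control T cells, and 2 of them held 10 each. Of the 4, Gata3 had a UMI in 3 and Il1rl1 in none. CD8 T cells had Il13 in 11 of 303 Model and 8 of 139 PD00 cells. Foxp3-positive T cells, the regulatory class, had it in 3 of 139 and 1 of 112. Gamma-delta T cells had it in 0 of 211 and 2 of 134.

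Cytokine-positive T cells of Model and PD00 held UMIs of Gata3, Il1rl1 and Cd4, genes of T helper 2 cells, more often than the other T cells. In Model, Gata3 had a UMI in 91.0% of the 221 Il13-positive T cells and 43.8% of the 2349 others. Il1rl1 was found in 77.4% against 23.4%, and Cd4 in 69.7% against 40.7%. In PD00 the Gata3 shares were 93.8% of 193 cells and 55.2% of the others. Il5-positive T cells of Model had Gata3 in 92.1%, Il1rl1 in 82.9% and Cd4 in 75.7% of 140 cells. Il4-positive T cells had them in 85.6%, 74.7% and 68.5% of 146 cells. Positive cells were deeper, with medians of 5472, 5384.5 and 5122.5 UMIs for Il13, Il5 and Il4, against 4395.5 for all T cells of Model, and the part of depth in these shares was not tested.

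ILC2, gated as lymphocytes with 3 or more ILC2 markers and no UMI of the T cell receptor complex, numbered 152 in Control (1.62% of cells), 100 in Model (0.886%) and 152 in PD00 (1.62%). Their Il5 level differed by less than counting error between libraries. It was found in 17 of 152, 11 of 100 and 15 of 152 ILC2 in Control, Model and PD00, at 49.0, 48.8 and 49.3 CPM, and the ratio of Model to Control was 0.996 (0.542 to 1.79). Thinned to 500 UMIs per cell, the shares of ILC2 with Il5 rested on 1, 2 and 3 cells, and thinned to 2000 UMIs they were 5.26%, 3.37% and 7.38%, with overlapping intervals. Their Il13 was at 2.97 CPM in 1 of 152 Control cells, 65.9 CPM in 10 of 100 Model cells and 40.2 CPM in 11 of 152 PD00 cells. That is 22.2-fold higher in Model than in Control (5.58 to 193), with the Control value resting on 2 UMIs, and 0.610 times as high in PD00 as in Model (0.331 to 1.11). Il4 was found in 1, 4 and 5 ILC2. Of 8 genes of tissue handling, 4 were at least 1.5-fold lower in Model than in Control over all cells, beside 18.1% of all tested genes. In ILC2, Fos stood at 3946, 2097 and 2351 CPM and Atf3 at 1971, 513 and 699.7 CPM in Control, Model and PD00. The part of handling in the cytokine levels was not tested.

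**Figure D4:**
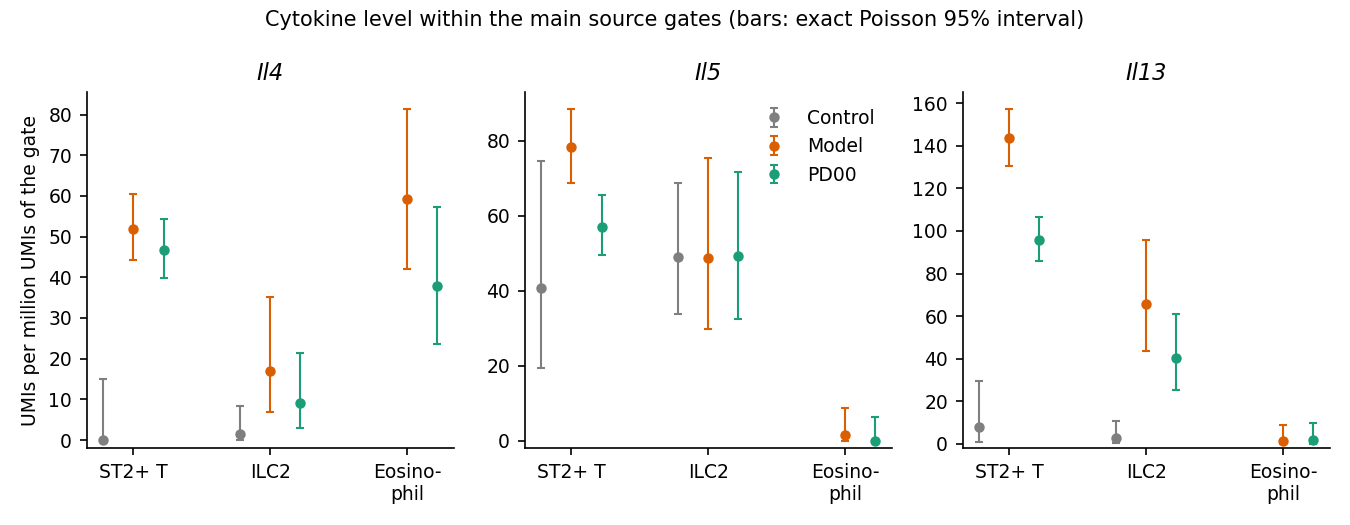
Level of Il4, Il5 and Il13 in CPM within ST2-positive T cells, ILC2 and eosinophils, with exact Poisson 95% intervals (Control eosinophils, 16 cells, are left out). Il5 in ILC2 lies between 48.8 and 49.3 in all 3 libraries, and eosinophils carry Il4 at 59.4 and 37.8 but nearly no Il5 or Il13.

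Basophils, which bear Mcpt8 and Ms4a2, were few, with 29 cells in Control, 17 in Model and 11 in PD00. Il4 was found in 9, 4 and 0 of them (19, 9 and 0 UMIs), and Il13 in 9, 5 and 4 (22, 13 and 10 UMIs). Il5 had no UMI in a basophil of any library. Mcpt8, a basophil protease gene, was found in 65.5%, 70.6% and 63.6% of these cells, and Cd3e in 34.5%, 35.3% and 36.4%, with Cd3d in 0 Control and 0 Model basophils. At least 2 UMIs of the T cell receptor complex were found in 3 of 29 Control, 3 of 17 Model and 3 of 11 PD00 basophils. The share of basophils with Il13 was 31.0% in Control (15.3 to 50.8), 29.4% in Model (10.3 to 56.0) and 36.4% in PD00 (10.9 to 69.2), so the intervals overlap. The top 3 Control cells held 10 Il4 UMIs each, and without the 1 basophil among them the basophil share of Control Il4 UMIs was 21.4% in place of 36.5%. Mast cells numbered 12, 7 and 5, and held 1 Il4 UMI in Control and 1 Il5 UMI each in Model and PD00. No mast cell held Il13 or Il9.

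Eosinophils carried Il4 and nearly no Il5 or Il13. In Model 32 of 537 had an Il4 UMI (5.96%, 4.11 to 8.31) and in PD00 20 of 497 (4.02%, 2.48 to 6.15), against 1 of 16 in Control. Il5 was found in 1 Model and 0 PD00 eosinophils, and Il13 in 1 of each. By the markers that chose them, Prg2, a granule protein gene, had UMIs in 69.6% and the chemokine receptor gene Ccr3 in 65.9% of Model eosinophils. Their RNA content was low, with medians of 978 UMIs in Model and 972 in PD00. At 59.4 CPM in Model (42.0 to 81.5) and 37.8 in PD00 (23.7 to 57.3), their Il4 level overlapped that of ST2-positive T cells. Thinned to 1000 UMIs, Il4 was found in 18 of 257 Model eosinophils (interval 4.20% to 10.8%) and 6 of 231 PD00 eosinophils (0.959% to 5.57%), against 0.241% and 0.340% of neutrophils, a granulocyte gate that serves here as background. This background rests on few cells. At full depth Il4 was found in 7 of 921 Model (0.306% to 1.56%) and 4 of 677 PD00 neutrophils (0.161% to 1.51%). An eosinophil marker was borne by 3 of the 7 and 2 of the 4. Of the 32 Il4-positive Model eosinophils, 6 also held a UMI of the T cell receptor complex (18.8%), against 9.31% of the Il4-negative ones.

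The order of levels differed between the cytokines among basophils, eosinophils, ST2-positive T cells, ILC2 and the other T cells. For Il4 in Model the order was basophils at 114 CPM (52.2 to 217), eosinophils at 59.4, ST2-positive T cells at 51.8 (44.2 to 60.4), ILC2 at 17.1 (6.87 to 35.2) and the other T cells at 7.76 (5.70 to 10.3). Only ST2-positive T cells and ILC2 were neighbours with separate intervals in that order. For Il13 in Model it was basophils at 165 (87.8 to 282), ST2-positive T cells at 144 (131 to 157), ILC2 at 65.9 (43.4 to 95.9) and the other T cells at 23.9 (20.2 to 28.2). Eosinophils came last at 1.56 (0.0396 to 8.70). All neighbours but the first pair had separate intervals. For Il5 in Model it was ST2-positive T cells at 78.2, ILC2 at 48.8 (29.8 to 75.4) and the other T cells at 6.77 (4.86 to 9.18). Eosinophils followed at 1.56 (0.0396 to 8.70), and the first pair and the last pair overlapped. The 17 Model basophils had no Il5 UMI, which allows up to 46.8 CPM. In Control the leading gate was basophils for Il13 (229.6 CPM) and Il4 (198 CPM), and ILC2 for Il5 (49.0 CPM, 33.7 to 68.8). The ILC2 interval overlapped that of ST2-positive T cells for Il5 (40.6 CPM, 19.5 to 74.7). Basophil intervals overlapped those of the 16 Control eosinophils for Il4 and Il13. In PD00 basophils led for Il13 at 219.8 CPM (105 to 404), overlapping ST2-positive T cells (85.7 to 106). The 11 PD00 basophils had no UMI of Il4 or Il5, which allows up to 81.1 CPM of each. By point value, ST2-positive T cells were highest for Il4 and Il5 in PD00. Their intervals overlapped those of eosinophils for Il4 and of ILC2 for Il5.

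Outside these gates the cytokines were rare, except in lymphocytes that met neither the T cell nor the ILC2 rule. Of these lymphocytes, 7 of 91 in Model (7.69%) and 4 of 114 in PD00 (3.51%) held Il13. Il5 was found in 6 and 3 of them, and Il4 in 3 and 9. In Control, 4 of 26 held Il5 (15.4%), 2 held Il13 and 0 held Il4. In the macrophage, dendritic, neutrophil, B, plasma, NK, endothelial, epithelial and stromal gates together, Il13 was found in 4 of 6695 cells in Control (0.0597%), 46 of 6201 in Model (0.742%) and 23 of 4861 in PD00 (0.473%). These gates held 7.58% of Model and 5.19% of PD00 Il13 UMIs. Of Il4 UMIs they held 12.9% in Model and 10.3% in PD00, more than the 10.5% and 6.47% in the eosinophil gate. Of Il5 UMIs they held 7.95% and 3.04%. No NK cell held Il4, Il5 or Il13 in any library, in 344, 192 and 57 cells, which allows shares of up to 0.872%, 1.56% and 5.26%. Of the 109 Model cells in these gates with a UMI of any of the cytokines, 41.3% also held a UMI of the T cell receptor complex, against 21.7% of the cells without. In PD00 it was 37.9% of 58 against 14.0%. The positive cells were deeper, with medians of 8888 against 5320.5 UMIs in Model and 10706.5 against 9207 in PD00, and the part of depth was not tested. Cells that met no gate held 7.71% of Model and 8.82% of PD00 Il4 UMIs. In Model, 14 of the 25 Il4-positive cells among them bore an eosinophil marker, against 435 of 1737 Il4-negative ones (25.0%). Such a marker was also found in 39.9% of Il4-negative Model macrophages or monocytes, and what these cells are was not tested.

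Il13 was the cytokine most often found together with the others in single T cells. In Model, 61 of the 221 Il13-positive T cells held Il5 (27.6%, 21.8 to 34.0), against 3.36% of Il13-negative T cells. Of them, 64 held Il4 (29.0%, 23.1 to 35.4), against 3.49%. In PD00, Il5 was found in 21.8% of 193 Il13-positive T cells against 4.42%, and Il4 in 30.6% against 4.57%. Il4 and Il5 met less often, with Il5 in 16.4% of Il4-positive T cells against 4.79% of the others in Model, and 14.8% against 5.32% in PD00. Il13 in turn was found in 43.8% of Il4-positive and 43.6% of Il5-positive T cells of Model. With cells thinned to 2000 UMIs in 1 random draw, Il5 was found in 21.4% of Il13-positive against 1.88% of Il13-negative T cells in Model and 9.73% against 2.82% in PD00, and Il4 in 12.5% against 2.79% and 17.7% against 2.87%. Since ST2-positive T cells held most of the T cell UMIs of all 3 genes in Model and PD00, the same values were taken within that gate.

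Within ST2-positive T cells alone, Il13-positive cells still held the others more often than Il13-negative cells did. Il5 was found in 32.7% (25.5 to 40.6) against 12.0% (9.23 to 15.3) in Model and in 21.8% (15.4 to 29.3) against 12.0% (9.50 to 14.9) in PD00. The shares with Il4 were 30.2% against 11.4% in Model and 31.3% against 10.2% in PD00. For Il4 and Il5 the values lay close together. Il5 was found in 21.8% of Il4-positive and 16.4% of Il4-negative cells in Model, and in 14.2% and 13.9% in PD00, with overlapping intervals. In the same draw of 2000 UMIs, the values in Model were 24.4% against 6.63% for Il5 by Il13, 13.4% against 9.04% for Il4 by Il13 and 8.93% against 9.16% for Il5 by Il4. In PD00 they were 9 of 90 cells against 7.48%, 18.9% against 5.85% and 7.55% against 7.82%. At this equal depth, the intervals of Il13-positive and Il13-negative cells stayed apart for Il5 in Model and for Il4 in PD00, and overlapped for the other pairs.

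**Figure D5:**
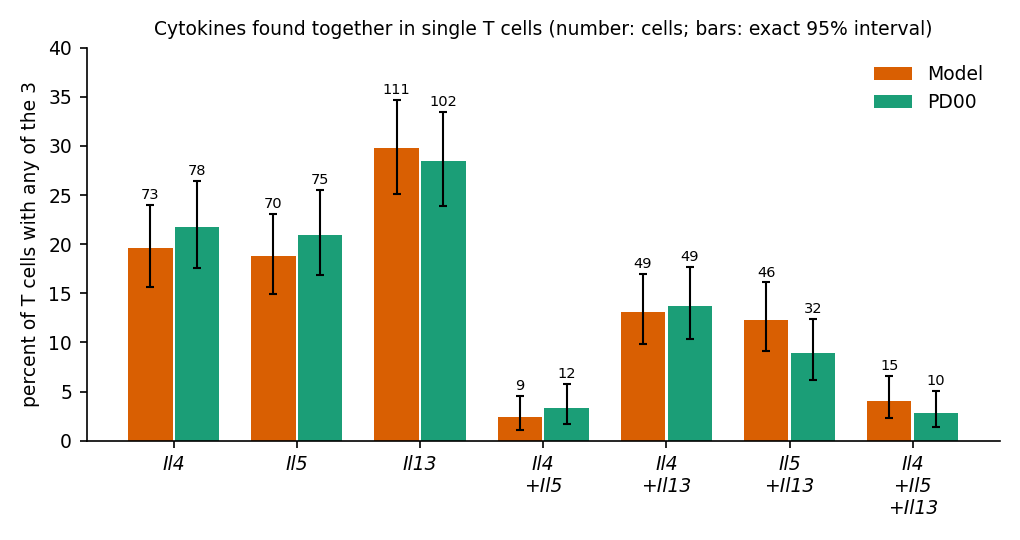
Percent of cytokine-positive T cells with each combination of Il4, Il5 and Il13, in Model and PD00, with the number of cells above each bar and exact 95% intervals. Il13 alone is the most frequent combination (111 and 102 cells), Il4 with Il5 but no Il13 is the least frequent (9 cells) in Model, and all 3 together were found in 15 and 10 cells.

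Of the 373 Model T cells with any of the 3, 254 held 1 cytokine, 104 held 2 and 15 held all 3. Cells with 2 held 46.5% and cells with 3 held 12.7% of the cytokine UMIs of T cells. In PD00 the numbers were 255, 93 and 10 of 358. Cells with more cytokines were deeper, with medians of 4322 UMIs for none, 4963 for 1, 5620.5 for 2 and 6250 for 3 in Model. With the few UMIs per cell, a cell without a UMI of a cytokine cannot be called a cell that does not express it. In Control, 12 T cells held any of the 3, and 1 of them held 2.

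The 5 genes whose pattern over gates and libraries was most like each cytokine were found by Pearson's r of log2(CPM + 1). It ran over the 45 combinations of gate and library with at least 50 cells, which share libraries. For Il13 they were Il21 (r 0.87), a cytokine of helper T cells, Il17rb (0.86), a receptor subunit for IL-25, Tnfsf11 (0.85), Rimkla and 9230102O04Rik. For Il5 they were Il17rb (0.88), Il2 (0.87), the T cell growth factor, Pcsk1, Ccl1 and Chdh. For Il4 they were A530010L16Rik (0.74), Il21 (0.72), Tnfsf11, Gpr45 and Tuba8. Il13 and Il5 followed each other at 0.88, Il13 and Il4 at 0.73, and Il4 and Il5 at 0.63. Rad50, which lies between Il13 and Il5, was at 0.46 with Il13, 0.48 with Il5 and 0.11 with Il4. By Spearman's rho, only 1 of the 5 genes for Il13 and 2 each for Il4 and Il5 stayed among the 5.

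Il21 had 0 UMIs in Control, 145 in Model and 190 in PD00, and was found in 9.50% of Il13-positive against 2.0% of Il13-negative T cells in Model, and in 9.84% against 2.90% in PD00. In ST2-positive T cells, split by Il13 at full depth and then thinned to 2000 UMIs, the Il21 ratio was 1.86 in Model (0.545 to 5.85) and 1.74 in PD00 (0.697 to 3.99), and both intervals include 1. In that comparison, 101 of 5137 genes were at least 1.5-fold higher and 140 lower in Il13-positive cells of both libraries. The genes highest in Il13-positive against Il13-negative cells in both libraries were led by Il17a, the cytokine of T helper 17 cells. It stood at 8.37 times in Model and 3.86 times in PD00, but in only 7 and 3 positive cells, 1 of which held 19 UMIs. The others, picked by the smaller of the 2 ratios, were Ints3, Ube2c, Dusp16, Pclaf, Gm11361, Cks1b, Qdpr, Hist1h2ap and Sar1b. The interval included 1 in PD00 for Ube2c, Gm11361 and Qdpr, and in Model for Cks1b. All 10 genes were picked by their ratios in these same cells, so an interval clear of 1 gives them no support. The intervals also take UMIs as independent, while Pclaf rested on 7 Il13-positive PD00 cells with up to 5 UMIs in 1 cell. In the same cells Mki67 or Top2a, markers of dividing cells, were found in 22.2% of 153 Il13-positive and 18.5% of 427 Il13-negative cells in Model, and in 24.8% and 17.9% in PD00, with overlapping intervals.

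Counts over the lists below are read beside the 12.3% of all tested genes that were at least 1.5-fold higher and the 18.1% that were lower in Model than in Control. Among the inducers of these cytokines, 1 of 7 measured genes was at least 1.5-fold higher and 3 were lower in Model than in Control, with a median log2 ratio of -0.58 beside -0.13 over all tested genes. Il33, the ligand of ST2, had 459 Control, 458 Model and 627 PD00 UMIs, a Model to Control ratio of 0.967 (0.848 to 1.10) and a PD00 to Model ratio of 1.42 (1.26 to 1.60). Tslp, another alarmin, stood at 0.430 times (0.342 to 0.538) in Model against Control, Il18 at 0.0363 times, and Il25 had 0 UMIs in every library. Calca, which encodes the neuropeptide CGRP, was the gene that was higher, at 2.18-fold (1.94 to 2.45). Of 10 measured inducer receptors, 5 were higher and 1 lower in Model than in Control (median log2 ratio 0.82), among them Il1rl1 at 5.69-fold (5.24 to 6.18) and Il17rb at 4.79-fold (3.56 to 6.57). Whether these follow the number of such cells or their level per cell cannot be told apart in sums over all cells. Il1rl1 and Il17rb are among the markers that chose ILC2. Within that gate Il1rl1 stood at 404, 725 and 782 CPM and Il17rb at 20.8, 83.0 and 89.5 CPM in Control, Model and PD00.

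Of 19 transcription factors of type 2 and other lymphocytes, 7 were at least 1.5-fold higher and 3 lower in Model than in Control (median log2 ratio 0.24), beside 12.3% and 18.1% of all tested genes. Gata3 was 4.70-fold higher in Model than in Control, and its PD00 to Model ratio was 1.13 (1.09 to 1.18). Irf4 was 6.06-fold, Maf 3.08-fold and Nfatc2 3.05-fold higher in Model than in Control. The Gata3, Irf4, Maf and Nfatc2 values came from sums over all cells. T cells made up 15.8% of cells in Control and 22.8% in Model, and plasma cells 0.320% and 5.02%. The part of these cell numbers in the 4 sums was not tested. In PD00 against Model, Tbx21, the factor of T helper 1 cells, stood at 0.544 times (0.434 to 0.679). Of 11 other measured T and ILC cytokines, 3 were higher in Model than in Control (Il10, Il21 and Tnfsf11) and 3 lower (Csf2, Il6 and Tnf), beside 12.3% and 18.1% of all tested genes, with a median log2 ratio of -0.01. In PD00 against Model none of these was higher and 3 were lower, beside 3.5% and 7.29%. They were Ifng at 0.335 times (0.267 to 0.418), Il17a at 0.585 times and Il22 at 0.301 times. NK cells made up 1.70% of cells in Model and 0.608% in PD00, CD8 T cells 2.68% and 1.48%, and gamma-delta T cells 1.87% and 1.43%, and the part of these numbers in the sums of Tbx21, Ifng, Il17a and Il22 was not tested. Of the 4 locus neighbours Rad50, Kif3a, Irf1 and Slc22a5, none was higher in Model than in Control and Irf1 was lower, at 0.553 times (median log2 ratio -0.39).

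Among 6 measured receptor genes of the cytokines, 2 were at least 1.5-fold higher and 2 lower in Model than in Control (median log2 ratio 0.09), beside 12.3% and 18.1% of all tested genes. Il4ra and Il13ra1, which form the receptor for IL-4 and IL-13, stood at 1.13 and 0.996 times in Model against Control, and at 0.912 and 0.853 times in PD00 against Model. Il5ra was 7.02-fold higher in Model than in Control (5.56 to 8.98), and the eosinophil gate, whose markers include Il5ra, held 16 Control and 537 Model cells. Of 12 target genes induced by IL-4 and IL-13, 11 were at least 1.5-fold higher in Model than in Control and 0 lower, and 8 were lower and 0 higher in PD00 than in Model, where 7.29% of all tested genes were lower. The median log2 ratio of the 12 was 5.07 in the first comparison and -0.72 in the second, beside 0.00 over all tested genes in the second. The 3 lowest in PD00 against Model were genes of airway epithelium. Chil4, a chitinase-like gene, was at 0.134 times (0.130 to 0.138), Muc5ac, a mucin of goblet cells, at 0.237 times (0.208 to 0.268) and Clca1, a regulator of mucus, at 0.433 times (0.425 to 0.441). Clca1 and Chil4 had 0 UMIs in Control, and both lie above the median whatever floor is set for them. Chil3 was higher in PD00 at 1.39 times and Retnla was at 0.995 times. The epithelial gate held 184, 435 and 227 cells in Control, Model and PD00, and the part of cell number in these sums was not tested.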

How the data were processed

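The data were droplet single-cell libraries (10x Chromium 3' v3) of mouse lung, 1 for each treatment label. The authors deposited a matrix of raw UMI counts per gene and barcode for each library. Per the submitters' processing notes they used Cell Ranger 3.1.0 and STAR with mm10, while the file headers name cellranger 5.0.0. Barcodes under 500 UMIs or 200 genes, or over 20% mitochondrial UMIs, were left out, and those with a Scrublet score of 0.2 or more (421, 252 and 274 in Control, Model and PD00) were removed. Kept cells held 77245146, 79690635 and 76914274 UMIs.

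Each cell took the class whose markers had the highest mean standardised level, if at least 0.5 and with 2 or more markers detected. T cells needed 2 UMIs of Cd3d, Cd3e, Cd3g and Trac, and ILC2 needed 3 markers and 0 of those UMIs. Lymphocytes between these rules were not split. Gate and doublet thresholds were chosen after seeing the data. The members and lists were chosen with earlier results of these data known. CPM is UMIs per 1000000 UMIs of the library or gate. Ratios have exact conditional-binomial, shares exact Clopper-Pearson and levels exact Poisson intervals at 95%, which cover counting error only. A gene at 0 is limited by 3 counts. Ratios used genes with at least 50 UMIs over both libraries. Thinning was 1 random draw. Named genes were the 4 members, the 5 genes most like each by correlation, the 10 genes with the largest ratio in Il13-positive against Il13-negative ST2-positive T cells (smaller of Model and PD00), and examples from the lists. Gene positions are from GENCODE vM21, and all 4 promoters were matched by symbol. The interval and ranking code was tested on simulated data. Tools were Python 3.11.15, numpy 2.4.6, scipy 1.17.1, pandas 2.3.3, scanpy 1.11.5 and matplotlib 3.10.9. Alternatives changed the mitochondrial, gene, doublet, T cell and UMI thresholds, the scaling, the depth and the correlation. The values of 1 gene of the transcription factor list are not reported here.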

Additional observations from a re-analysis of the deposited data

Results flagged for a closer look

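Barcodes removed by the doublet score, which no comparison above uses, also held cytokine UMIs. Il4 was found in 17 of 252 such Model barcodes (6.75%) and 13 of 274 PD00 barcodes (4.74%), against 0 of 421 in Control. Il13 was found in 15 Model barcodes (5.95%) and 14 PD00 barcodes (5.11%), against 0 in Control. Il5 was found in 13 Model barcodes (5.16%), against 3 in Control (0.713%). In PD00, Il5 was found in 6 barcodes (2.19%, 0.808 to 4.71), an interval that holds the 1.77% of kept PD00 cells. The Model shares lie above the 2.26%, 2.66% and 1.67% of kept Model cells with Il4, Il13 and Il5. These shares were not taken at equal depth, and what these barcodes hold was not tested.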

How the results depend on the processing

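Of 249 alternative values for 56 results, 225 stayed within the counting interval (counts of genes: within 1.5 times) and 24 moved further. The count of changes in direction was 0, but the ratios of ILC2 shares with Il5 given below did cross 1. The cause of a move was not tested where it is not part of the alternative itself. Without the cell with the most UMIs, basophils held 21.4% of Control Il4 UMIs. With doublets kept, T cells held 78.5% of Model Il13 UMIs. Requiring a mean standardised marker level of 1, chosen after seeing the data, gave T cells 80.4% of Model Il13, 75.6% of PD00 Il13 and 63.2% of PD00 Il4 UMIs. The ratio of ILC2 shares with Il5 was 2.19 for PD00 against Model at 2000 UMIs, and 3.04 for Model against Control at 500 UMIs, a depth also chosen after seeing the data. At full depth these ratios were 0.897 (0.385 to 2.16) and 0.984 (0.416 to 2.23), on the other side of 1 and with intervals that include it. Requiring 2 UMIs of each cytokine, Il5 was found in 19.6% of Il13-positive T cells in Model and 15.6% in PD00, Il4 in 14.3% and 13.5%, and Il5 in 8.33% and 9.09% of Il4-positive T cells. Thinned to 2000 UMIs, these were 21.4% and 9.73%, 12.5% and 17.7%, and 6.41% and 6.67%. With at least 200 UMIs per gene, 287 genes were 1.5-fold higher and 567 lower in PD00 than in Model, in place of 534 and 1112, since fewer genes were counted. By Spearman's rho, 2, 2 and 1 of the 5 genes most like Il4, Il5 and Il13 stayed among the 5. No paired analysis was possible because each treatment has 1 library. Most positive cells held 1 UMI, so depth limits every share of cells.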
